A study of Mus musculus with 4 samples.

Results

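The DNAJ co-chaperones were examined in poly(A) RNA of adult mouse testis. They were taken as every line of the deposited count table whose symbol begins with Dnaja, Dnajb or Dnajc followed by a digit, read without regard to case, which gave 47 of 22274 genes. Capital letters in the table would otherwise have dropped Dnajc5g and Dnajc13, leaving 45. Sequencing compared wild-type (WT) mice with Fam170a knockout (KO) mice, with 2 libraries per genotype, in a study of what Fam170a does while round spermatids are shaped into sperm. The labels give neither the strain, the exact age nor the part of Fam170a that was removed, nor do they tie a library to an animal of its own. A p-value here therefore reflects the spread among these 4 samples alone, which may be technical. The genotype label of KO replicate 2 reads Fam171a where that of KO replicate 1 reads Fam170a. Fam170a had 2240 and 3510 counts in the WT libraries and 1 count in each KO library.

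Of the 47 genes, 46 had enough counts to be tested. The untested line, Gm20503, had 0 counts in all 4 libraries. It carries the symbol Dnajc25 in the deposited table, but its identifier belongs in the GENCODE M21 annotation to another gene. That gene overlaps Dnajc25 on the same strand and shares 348 exon bases with it and 946 with Gng10. A line with the symbol Dnajb3 likewise has the identifier of 4930503B20Rik, and both are called here by their annotated names. Levels are given as CPM, that is, counts divided by a scaled library size, and "per kb" means CPM divided by the length of 1 coding transcript per gene. The library totals of 26029374 to 41684437 counts put 11 to 20 counts behind the lowest WT levels given here, those of Dnajc12.

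DNAJ proteins, also called J proteins or HSP40s, bring unfolded or newly made proteins to HSP70 chaperones. Their J domain carries the tripeptide His-Pro-Asp, which stimulates HSP70 to split ATP and close on its client. Class A and B members resemble the bacterial DnaJ protein at their N terminus, whereas class C members share only the J domain with it and work at particular places, such as the ribosome, clathrin coats or the mitochondrial import channel. In the testis several J proteins are made chiefly in haploid spermatids, among them Dnajb3 in the mouse and Dnajb13, a component of the radial spokes in the sperm flagellum.

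The codons for His-Pro-Asp mark the working part of the family, and are shown for Dnajc2, the one DNAJ gene that passed the test between genotypes, for Dnajb1 as the classical cytosolic member, for the members listed as testis-enriched, and for 4930503B20Rik, a line of the table under the symbol Dnajb3 that is outside that list. Each run gives 45 bases of the coding strand of GRCm38, 5′ to 3′, read from the GENCODE M21 transcripts, with the His-Pro-Asp codons in capitals.
Dnajc2, chr5:21776766-21776810, minus strand: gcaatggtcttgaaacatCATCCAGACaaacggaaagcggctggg
Dnajb1, chr8:83608407-83608451, plus strand: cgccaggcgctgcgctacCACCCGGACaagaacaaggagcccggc
Dnajb3, chr1:88205562-88205606, minus strand: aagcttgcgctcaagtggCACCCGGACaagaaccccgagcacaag
Dnajb7, chr15:81408018-81408062, minus strand: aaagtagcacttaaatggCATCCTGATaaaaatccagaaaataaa
Dnajb8, chr6:88222556-88222600, plus strand: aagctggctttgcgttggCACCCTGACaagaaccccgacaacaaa
Dnajc5b, chr3:19574664-19574708, plus strand: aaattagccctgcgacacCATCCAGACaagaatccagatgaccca
Dnajc5g, chr5:31109496-31109540, plus strand: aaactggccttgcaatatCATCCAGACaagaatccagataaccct
4930503B20Rik, chr3:146651035-146651079, minus strand: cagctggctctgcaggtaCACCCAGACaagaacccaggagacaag
Dnajb13, chromosome 7, minus strand: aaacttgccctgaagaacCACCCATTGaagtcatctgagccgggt

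These codons were found in frame in 46 of the 47 genes, with the same bases counted for both Dnajc25 and Gm20503. Dnajb13 was the exception, and its line shows the His and Pro codons at codon 32 followed by TTG, a codon for leucine, in place of one for aspartate. In class A and B genes the tripeptide lay near the start of the protein, within the first 60 codons in 14 of 18. In class C it ranged from codon 31 to codon 1332, the latter in Dnajc13, and fell within the first 60 codons in 10 of 29. The His codon was number 31 in Dnajb3, Dnajb7, Dnajb8 and 4930503B20Rik, 45 in Dnajc5g, 47 in Dnajc5b and 119 in Dnajc2. The line for 4930503B20Rik thus places a J-domain tripeptide in a gene that the annotation names only by its clone.

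**Figure D1:**
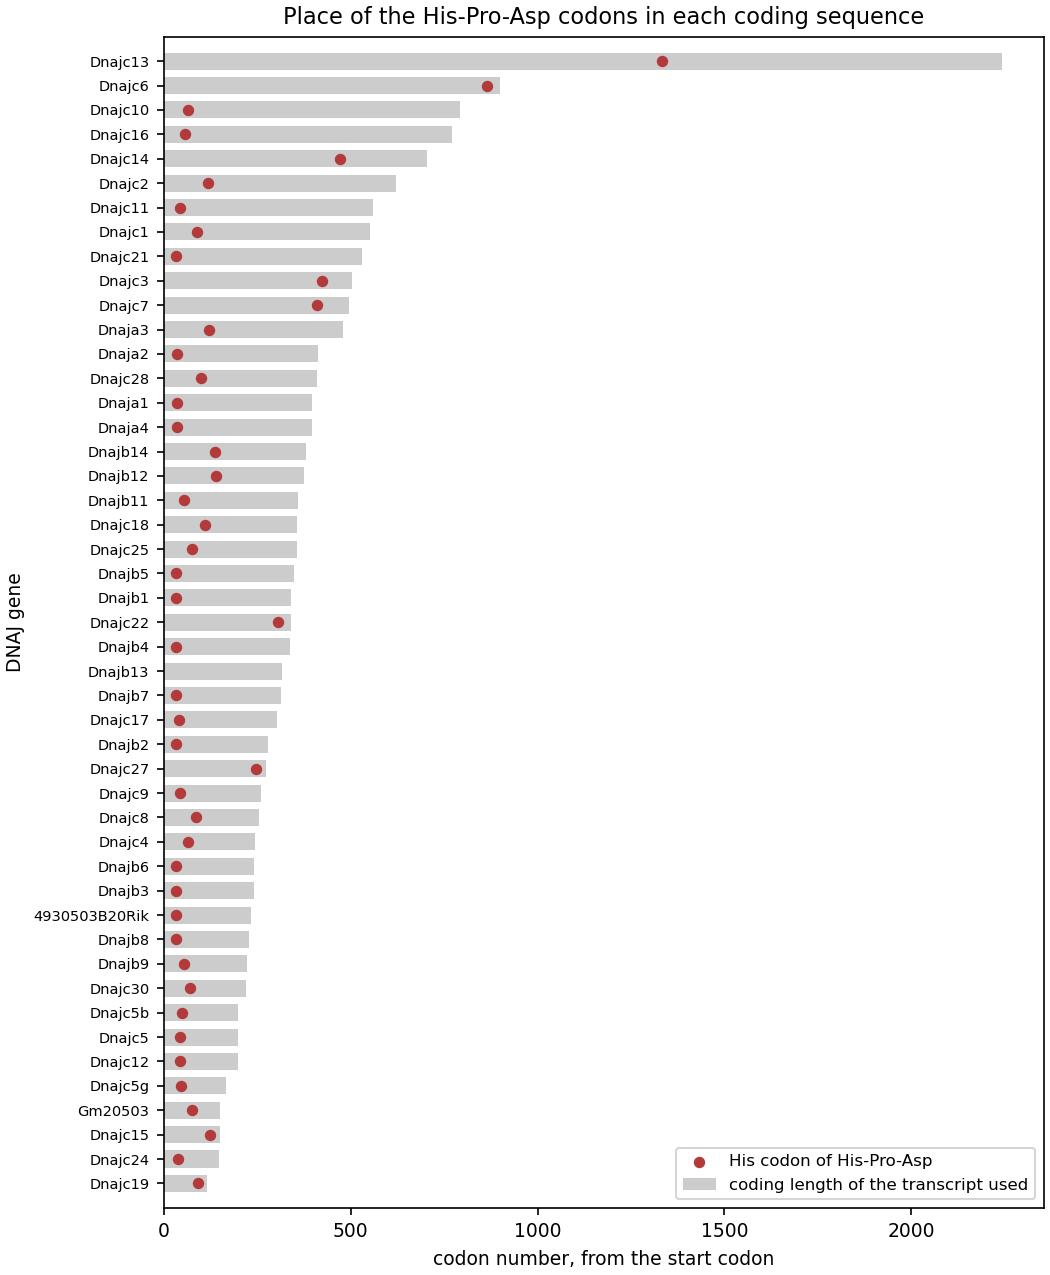
Place of the His-Pro-Asp codons (red points, codon number from the start codon) along the coding length of 1 transcript per gene (grey bars, in codons) for the 47 DNAJ genes. Most class A and B genes have the point at the left end of the bar, class C genes such as Dnajc13 and Dnajc6 have it far to the right, and Dnajb13 has none.

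Per unit of transcript length, the highest DNAJ level in the testis belonged to Dnajb3, with 449 CPM per kb as a mean over the 4 libraries. Next came Dnajb6, a class B member that in human cells keeps polyglutamine proteins from aggregating, at 382 CPM per kb. Dnajb8, which has the same activity in human cells, was at 186, Dnajc5b at 167, Dnajc2 at 165 and the heat-inducible Dnajb1 at 126 CPM per kb. Dnajb7, 4930503B20Rik, Dnajc5g and Dnajb13 followed at 108, 107, 105 and 98.9 CPM per kb. All 6 genes listed as testis-enriched from general knowledge of mouse tissues (Dnajb3, Dnajb7, Dnajb8, Dnajb13, Dnajc5b and Dnajc5g) were thus among the 10 highest per kb. By CPM not divided by length, Dnajb6 ranked 1, Dnajb3 2 and Dnajb13 7. Dnajb8, Dnajc5b, Dnajc5g and Dnajb7 then ranked 14, 15, 17 and 21. Dnajb3, Dnajb7 and Dnajb8 were also 3 of the 4 members whose transcript is a single exon, with Dnajc30 as the other.

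At the low end per kb were Dnajc6, the clathrin-uncoating protein auxilin, at 0.569, Dnajc22 at 0.362 and Dnajc12, a partner of aromatic amino acid hydroxylases in humans, at 0.111 CPM per kb. In CPM not divided by length, the members together summed to 6080 and 5325 CPM in WT and to 6155 and 6722 CPM in KO. The testis-enriched genes made up 25.6% and 20.7% of that DNAJ total in WT and 22.2% and 23.3% in KO, so their share was highest and lowest in the 2 WT libraries and the KO values lay between them.

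**Figure D2:**
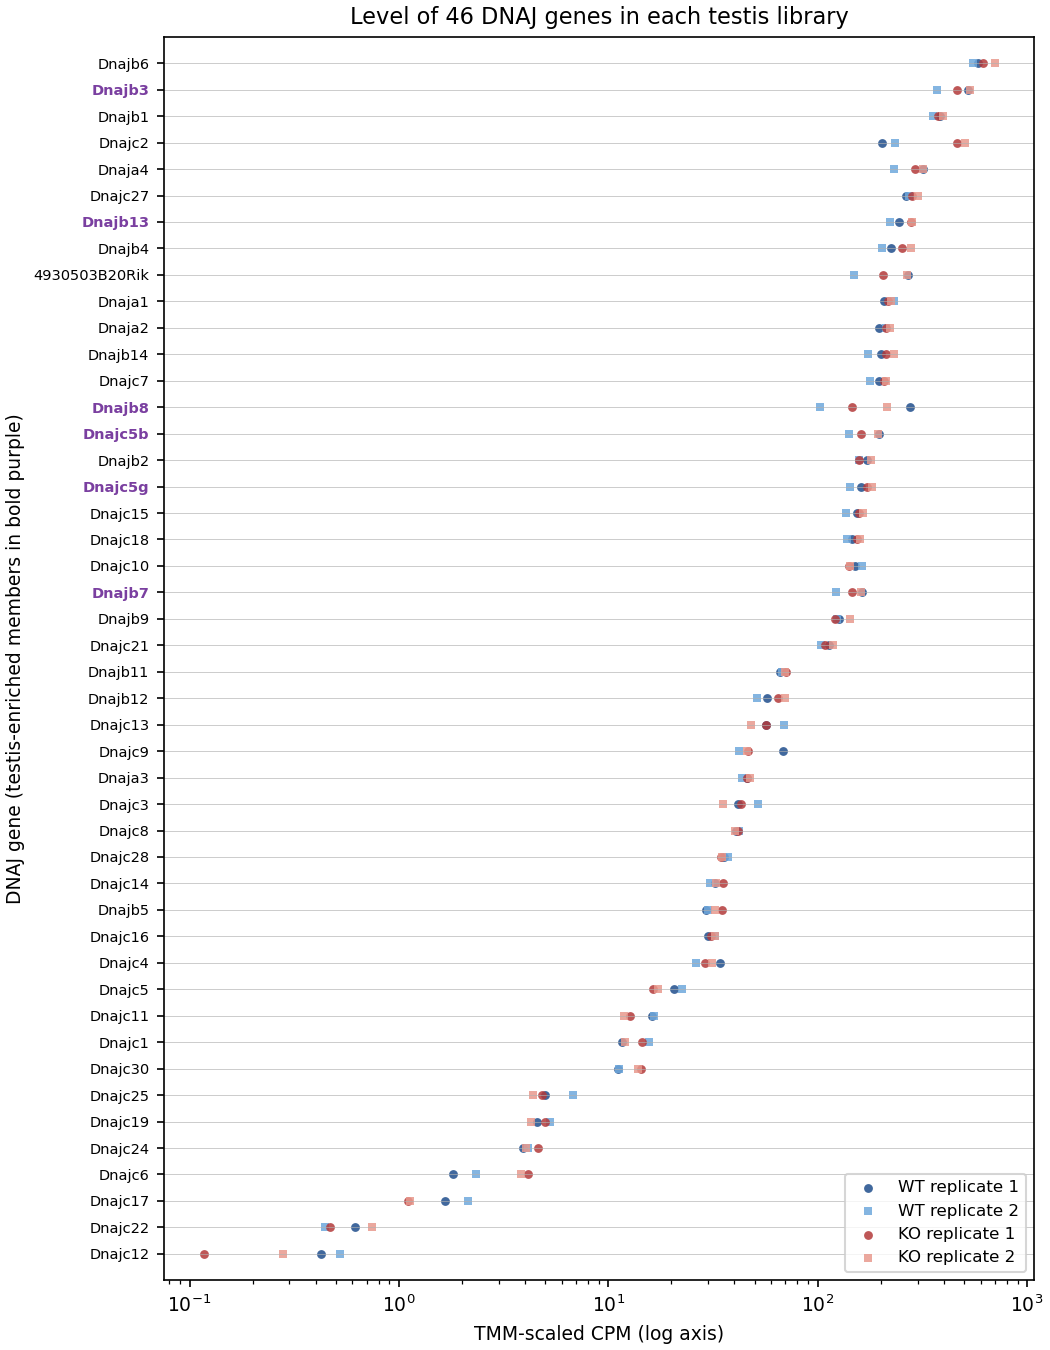
CPM (log axis) of the 46 tested DNAJ genes in each of the 4 libraries, with WT in blue and KO in red, replicate 1 as circles and replicate 2 as squares, and the testis-enriched genes in bold purple. Dnajc2 shows the WT and KO pairs far apart at high level, while Dnajb8 is spread most widely among the testis-enriched genes, with WT replicate 1 highest and WT replicate 2 lowest.

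Dnajc2 was the only DNAJ gene to pass the test, and its level rose more than 2-fold in KO. It encodes MPP11, also called ZRF1, a J protein that sits at the ribosome exit tunnel and, with the HSP70-like protein Hspa14, forms the ribosome-associated complex of mammals. It is also known to act on chromatin by binding ubiquitinated histone H2A. Dnajc2 (ENSMUSG00000029014, chromosome 5, 21757267 to 21785251, minus strand, GRCm38) was at 204 and 233 CPM in WT and at 465 and 504 CPM in KO, from 5300, 8896, 15924 and 19755 counts. Both KO libraries lay above both WT libraries, and the gap between genotypes was several times the gap within either.

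The fold change of Dnajc2 was 2.22, a log2 fold change of 1.15 ± 0.10 (SE), with an edgeR adjusted p of 0.0180 as the mean went from 218 ± 20.6 CPM (WT) to 484 ± 28.1 CPM (KO; SD, n = 2). Among all 15636 tested genes, 71 (0.454%) passed at an adjusted p under 0.05 as higher in KO and 71 (0.454%) as lower, or 142 in either direction (0.908%). Against that background 1 of 46 DNAJ genes was higher and 0 were lower. At an unadjusted p under 0.05 the DNAJ counts were 6 higher and 3 lower, where 11.8% of all genes were higher and 12.8% lower. DESeq2 and limma-voom each also called 1 DNAJ gene, Dnajc2, so that in every list of members below other than the nuclear one these tools also called 0. Its log2 fold change stayed between 1.09 and 1.21 when a KO library was left out, but the adjusted p became 0.0762 without KO replicate 1 and 0.109 without KO replicate 2.

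Genes beside Dnajc2 did not pass the test. No annotated gene overlaps the span of Dnajc2, so its exons share no bases with another annotated gene on either strand. Transcripts outside the annotation were not examined. Pmpcb, which encodes a subunit of the mitochondrial processing peptidase and ends just beyond one end of Dnajc2, had 149 ± 1.26 CPM in WT against 171 ± 4.30 in KO (log2 fold change 0.20, edgeR adjusted p = 0.184). Psmc2, a proteasome ATPase gene that starts just beyond the other end, was at 369 ± 19.6 and 431 ± 8.08 CPM (log2 fold change 0.22, edgeR adjusted p = 0.171). These neighbours were chosen after values were seen.

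Hspa14, the partner of Dnajc2 in the ribosome-associated complex, had values in the opposite order. It was at 9.22 and 9.47 CPM in WT and at 5.49 and 5.13 CPM in KO, so both KO libraries lay below both WT libraries. Its log2 fold change of -0.82 ± 0.14 (SE) did not pass, with an edgeR adjusted p of 0.0809. It passed with DESeq2 (adjusted p = 0.00659) and without a filter on low counts (edgeR adjusted p = 0.0424). Those settings called 1011 and 451 of all genes, against 142 in the main fit. It did not pass with limma-voom (adjusted p = 0.0789), with DESeq2 size factors (edgeR adjusted p = 0.0917) or with total counts (edgeR adjusted p = 0.0934). With a library left out, its log2 fold change ran from -0.89 to -0.77. Gm45902, an annotated gene on the same strand, shares 321 exon bases with Hspa14 (7.91% of them) and had 32, 50, 16 and 20 counts in WT replicates 1 and 2 and KO replicates 1 and 2, so how reads were divided between them is uncertain. Whether the ratio of Dnajc2 to Hspa14 protein differs was not measured.

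**Figure D3:**
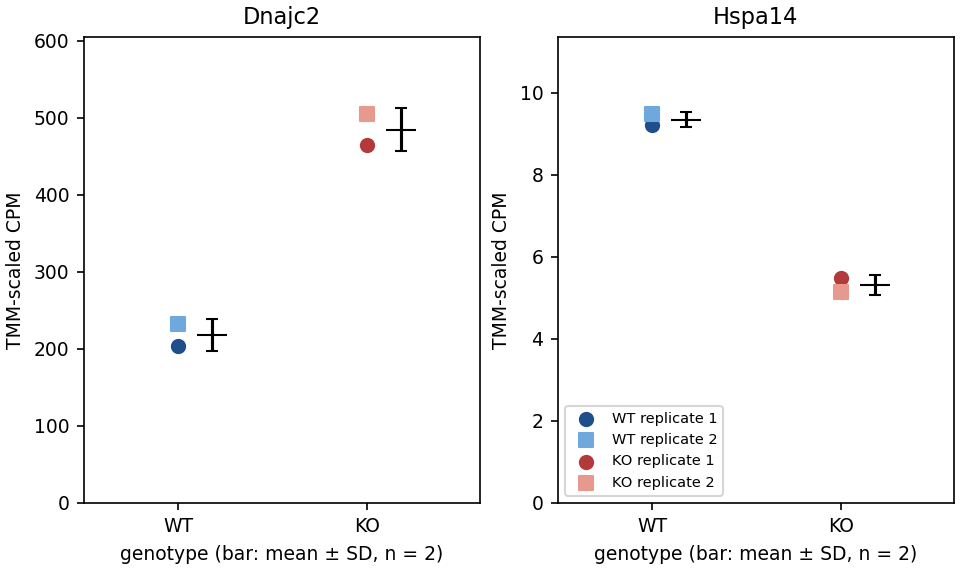
CPM of Dnajc2 (left) and Hspa14 (right) in each library by genotype, with mean ± SD (n = 2) as bars and separate linear axes from 0. Dnajc2 sits at 204 and 233 CPM in WT and at 465 and 504 CPM in KO, while Hspa14 sits at 9.22 and 9.47 CPM in WT and at 5.49 and 5.13 CPM in KO, a difference that did not pass the edgeR test.

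None of the 6 testis-enriched genes passed the edgeR test. An unadjusted p under 0.05 gave 1 higher, where 11.8% of all tested genes were higher. Of the 6 genes, 4 varied more between the WT libraries than between genotypes. In bulk RNA, fewer cells of a type cannot be told apart from less RNA per cell. Dnajb3, also named MSJ-1, is a J protein of mouse spermatids. It was at 520 and 371 CPM in WT and at 465 and 532 CPM in KO (log2 fold change 0.16 ± 0.17, edgeR adjusted p = 0.597). Dnajb8 was at 275 and 102 CPM in WT and at 145 and 215 CPM in KO (log2 fold change -0.06 ± 0.45, edgeR adjusted p = 0.950). Both KO values of Dnajb8 lay inside the WT range, which spans more than a factor of 2.

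Dnajb7 was at 163 and 122 CPM in WT and at 146 and 161 CPM in KO (log2 fold change 0.11, edgeR adjusted p = 0.690). Dnajc5b encodes a testis relative of the cysteine string protein, a vesicle-bound J protein, and was at 196 and 141 CPM in WT and at 162 and 194 CPM in KO (log2 fold change 0.08, edgeR adjusted p = 0.821). In these 4 genes WT replicate 2 was lowest, KO replicate 1 next, and WT replicate 1 or KO replicate 2 highest, and the genotypes overlapped. The same order held in 7 genes outside the list, Dnajb1, Dnaja3, Dnajc4, Dnajc21, Dnajc22, 4930503B20Rik and Dnaja4. Of these, 4930503B20Rik was at 271 and 150 CPM in WT and at 205 and 268 CPM in KO (log2 fold change 0.17, edgeR adjusted p = 0.753), and Dnaja4, a class A cytosolic member, at 318 and 233 CPM in WT and at 293 and 320 CPM in KO (log2 fold change 0.15, edgeR adjusted p = 0.580).

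The other 2 testis-enriched genes had both KO libraries above both WT libraries, without passing. Dnajb13 was at 245 and 222 CPM in WT and at 277 and 281 CPM in KO (log2 fold change 0.26 ± 0.08, edgeR adjusted p = 0.148). Dnajc5g, another relative of the cysteine string protein, was at 161 and 143 CPM in WT and at 172 and 182 CPM in KO (log2 fold change 0.21 ± 0.09, edgeR adjusted p = 0.222). Across all tested genes 29.4% had both KO libraries above both WT libraries and 27.9% had both below, and among the 46 DNAJ genes these were 17 and 8.

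The summed level of elongating spermatid markers, and 9 of the 10 taken singly, had the library order of Dnajb8, with Prm3 as the exception. Summed over these genes (protamines, transition proteins, Odf1, Akap4, Smcp, Gapdhs and Oaz3), all of them tested and none called by edgeR, DESeq2 or limma-voom or under an unadjusted p of 0.05, with overlapping genotypes in each, the level was 12964 and 5224 CPM in WT and 6899 and 10204 CPM in KO. Their median log2 difference of WT replicate 2 from WT replicate 1 was -1.11, against -0.44 in the testis-enriched DNAJ genes, 0.03 in the 40 other DNAJ genes and 0.01 in all tested genes. Between KO replicates 2 and 1 the medians were 0.52, 0.16, 0.05 and 0.01. Round spermatid markers summed to 2565 and 2264 CPM in WT and to 2730 and 2836 CPM in KO, with 9 of 10 higher in both KO libraries and 1 called higher (Spaca7). Dnajb13 and Dnajc5g also had both KO libraries above both WT libraries, as did 15 of the 40 other DNAJ genes and 29.4% of all tested genes. The part that spermatid content plays in the DNAJ values was not tested.

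**Figure D4:**
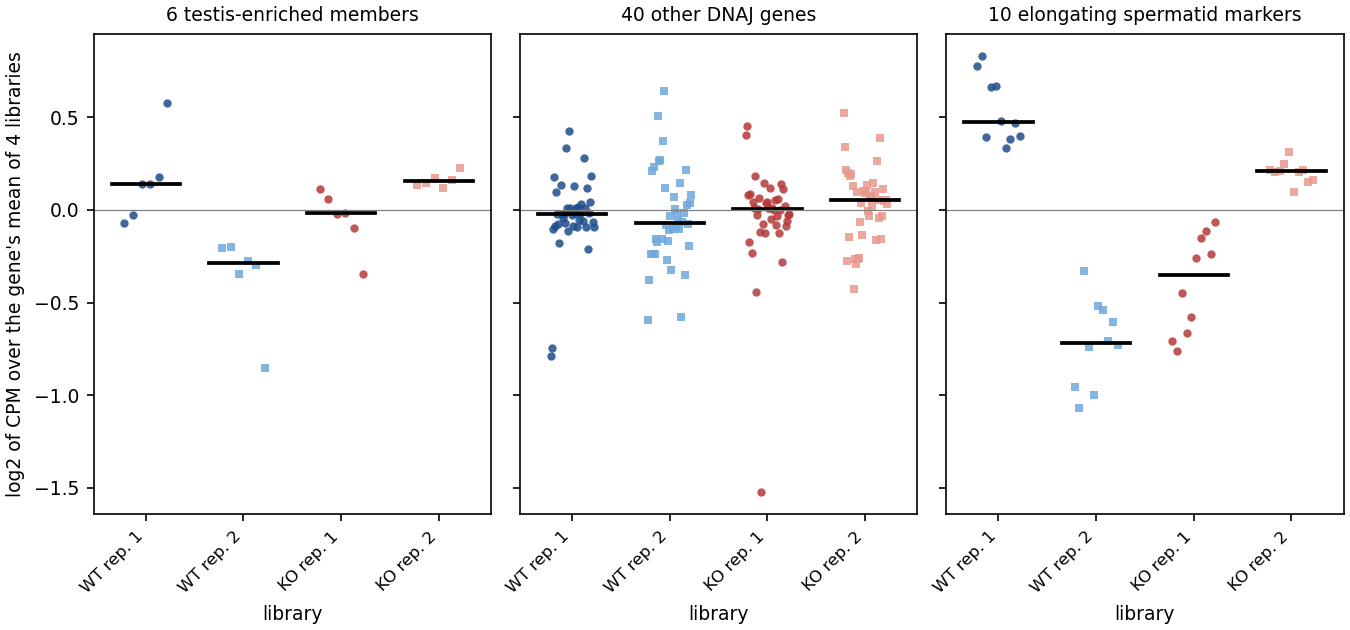
Log2 of each gene's CPM over its mean of the 4 libraries, for 6 testis-enriched DNAJ genes, 40 other DNAJ genes and 10 elongating spermatid markers, with the median as a black line. The testis-enriched genes and the spermatid markers have their lowest median in WT replicate 2 (-0.29 and -0.72). Their medians are above 0 in WT replicate 1 and KO replicate 2, while those of the other DNAJ genes stay between -0.07 and 0.05.

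Set beside the other DNAJ genes, the testis-enriched list had 5 positive and 1 negative fold changes (4 positive with total counts) and a median of 0.13 on the log2 scale. The 40 others had 26 positive and 14 negative (16 positive with total counts) with a median of 0.07, beside a median of 0.01 for all tested genes. Summed CPM of the testis-enriched genes was 1331 ± 323 in WT and 1466 ± 140 in KO, a difference smaller than the SD of WT. For the others it was 4372 ± 211 in WT and 4973 ± 261 in KO, from 4521 and 4223 CPM in WT and 4788 and 5157 CPM in KO, of which Dnajc2 alone supplied 218 and 484 CPM. Without WT replicate 2 the median of the testis-enriched genes turned to -0.08, and without WT replicate 1 it was 0.27. The difference between the lists was not tested.

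J proteins of the cytosol, which hand clients to HSP70 in general folding, had positive fold changes in 9 of 9 genes under TMM scaling, the scaling used throughout, but in 8 with DESeq2 size factors and 5 with total counts. The 9 leave out the class B genes listed as testis-enriched, of which Dnajb3, Dnajb7 and Dnajb13 were positive and Dnajb8 was negative (log2 fold change -0.06). For the 9 genes the further values were as follows. Their median was 0.15, none passed the edgeR test, and 1 was higher at an unadjusted p under 0.05, where 11.8% of all tested genes were. In 5 of them both KO libraries lay above both WT libraries, where 29.4% of all genes did so and 50.8% had a positive fold change. Dnajb6 was at 582 and 550 CPM in WT and at 618 and 700 CPM in KO (log2 fold change 0.22, edgeR adjusted p = 0.215). Dnajb4, a heat-inducible relative of Dnajb1, was at 223 and 203 CPM in WT and at 253 and 278 CPM in KO (log2 fold change 0.32 ± 0.09, edgeR adjusted p = 0.129). Dnajb1 itself was at 382 and 354 CPM in WT and at 377 and 398 CPM in KO, with overlapping genotypes (log2 fold change 0.08, edgeR adjusted p = 0.610). Dnaja1, whose loss in mice impairs spermatogenesis, was at 206 and 232 CPM in WT and at 216 and 224 CPM in KO (log2 fold change 0.01, edgeR adjusted p = 0.968). With scaling by total counts, which moved the median of all genes from 0.01 to -0.10, the values of Dnajb1, Dnaja1, Dnaja2 and Dnajb2 were negative.

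J proteins of the endoplasmic reticulum, acting in folding, secretion or degradation, numbered 12 with a median of 0.07. Some of them serve the HSP70 Hspa5. None of the 12 passed the edgeR test, while 1 was higher at an unadjusted p under 0.05, where 11.8% of all tested genes were. Dnajb12 and Dnajb14, membrane proteins that aid degradation of misfolded proteins, had log2 fold changes of 0.30 (edgeR adjusted p = 0.152) and 0.24 (edgeR adjusted p = 0.222), with both KO libraries above both WT libraries. Dnajb12 was at 57.2 and 51.4 CPM in WT and at 64.5 and 69.5 CPM in KO. Dnajb14 was at 201 and 174 CPM in WT and at 211 and 232 CPM in KO. The soluble Hspa5 partners Dnajb9 and Dnajb11 had means of 125 and 66.7 CPM in WT and 132 and 70.2 CPM in KO. Of the 12 genes 8 were positive and 4 negative. Dnajc10, a disulfide reductase that works with Hspa5, was at 151 and 162 CPM in WT and at 142 and 143 CPM in KO (log2 fold change -0.14, edgeR adjusted p = 0.340). Dnajc25 was at 4.99 and 6.78 CPM in WT and at 4.81 and 4.37 CPM in KO (log2 fold change -0.37, edgeR adjusted p = 0.324), so that in both genes the KO libraries lay below the WT libraries. Dnajc3, an Hspa5 partner also known as p58IPK, had a log2 fold change of -0.26 with overlapping genotypes (edgeR adjusted p = 0.346), and the last of the 4 was Dnajc1.

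Mitochondrial J proteins had a median of -0.01 over 7 genes, none of which passed the edgeR test. An unadjusted p under 0.05 gave 1 higher and 1 lower, where 11.8% of all tested genes were higher and 12.8% lower. Dnajc11, a protein of the cristae-shaping machinery, was at 16.2 and 16.6 CPM in WT and at 12.7 and 11.8 CPM in KO (log2 fold change -0.42 ± 0.12, edgeR adjusted p = 0.123). Dnajc30, a regulator of the respiratory chain in the inner membrane, was at 11.2 CPM in both WT libraries and at 14.4 and 13.9 CPM in KO (log2 fold change 0.33, edgeR adjusted p = 0.169). Dnajc30 shares 26.2% of its exon bases with Bud23 on the opposite strand, so its level is uncertain where counting ignored strand. Dnajc15 and Dnajc19, J proteins of the protein import channel, had means of 145 and 4.93 CPM in WT and 161 and 4.61 CPM in KO.

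Among J proteins of the nucleus, RNA processing and ribosomes, Dnajc2 was the gene that passed, and the median of 5 genes was -0.01. Dnajc17, a splicing-related protein, was at 1.65 and 2.15 CPM in WT and at 1.11 and 1.12 CPM in KO (log2 fold change -0.77, edgeR adjusted p = 0.172). Dnajc9, a chaperone of histones H3 and H4, was at 68.3 and 42.1 CPM in WT and at 46.6 and 46.2 CPM in KO, so that WT replicate 1 stood above the other 3 libraries (log2 fold change -0.25, edgeR adjusted p = 0.527). Dnajc21, which acts in ribosome maturation, and the spliceosome protein Dnajc8 had means of 109 and 41.4 CPM in WT and of 114 and 41.1 CPM in KO.

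Vesicle J proteins gave values in both directions, and none of 3 passed the edgeR test. An unadjusted p under 0.05 gave 1 higher and 1 lower, where 11.8% of all tested genes were higher and 12.8% lower. Dnajc6 was at 1.81 and 2.33 CPM in WT and at 4.14 and 3.83 CPM in KO (log2 fold change 0.94 ± 0.23, edgeR adjusted p = 0.107), from 47, 89, 142 and 150 counts. Dnajc5, the cysteine string protein of synaptic vesicles, was at 20.6 and 22.6 CPM in WT and at 16.4 and 17.4 CPM in KO (log2 fold change -0.36, edgeR adjusted p = 0.148). Dnajc13, an endosomal protein, was at 56.9 and 69.3 CPM in WT and at 56.6 and 47.9 CPM in KO (log2 fold change -0.27, edgeR adjusted p = 0.279). In each of these 3 genes the genotypes did not overlap, though for Dnajc13 the nearest WT and KO values all but met. Across all tested genes 29.4% had both KO libraries above both WT libraries and 27.9% had both below.

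The 4 tested genes outside these lists did not pass the edgeR test, and 0 were under an unadjusted p of 0.05. Dnajc27, a Rab-like GTPase with a J domain at its C terminus, was at 263 and 273 CPM in WT and at 281 and 300 CPM in KO (log2 fold change 0.11, edgeR adjusted p = 0.415). Dnajc12 had the lowest log2 fold change of the family, -1.22 ± 0.56 (edgeR adjusted p = 0.239), from 11 and 20 counts in WT and 4 and 11 in KO. Dnajc24, which takes part in making diphthamide, averaged 4.03 CPM in WT and 4.33 CPM in KO.

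**Figure D5:**
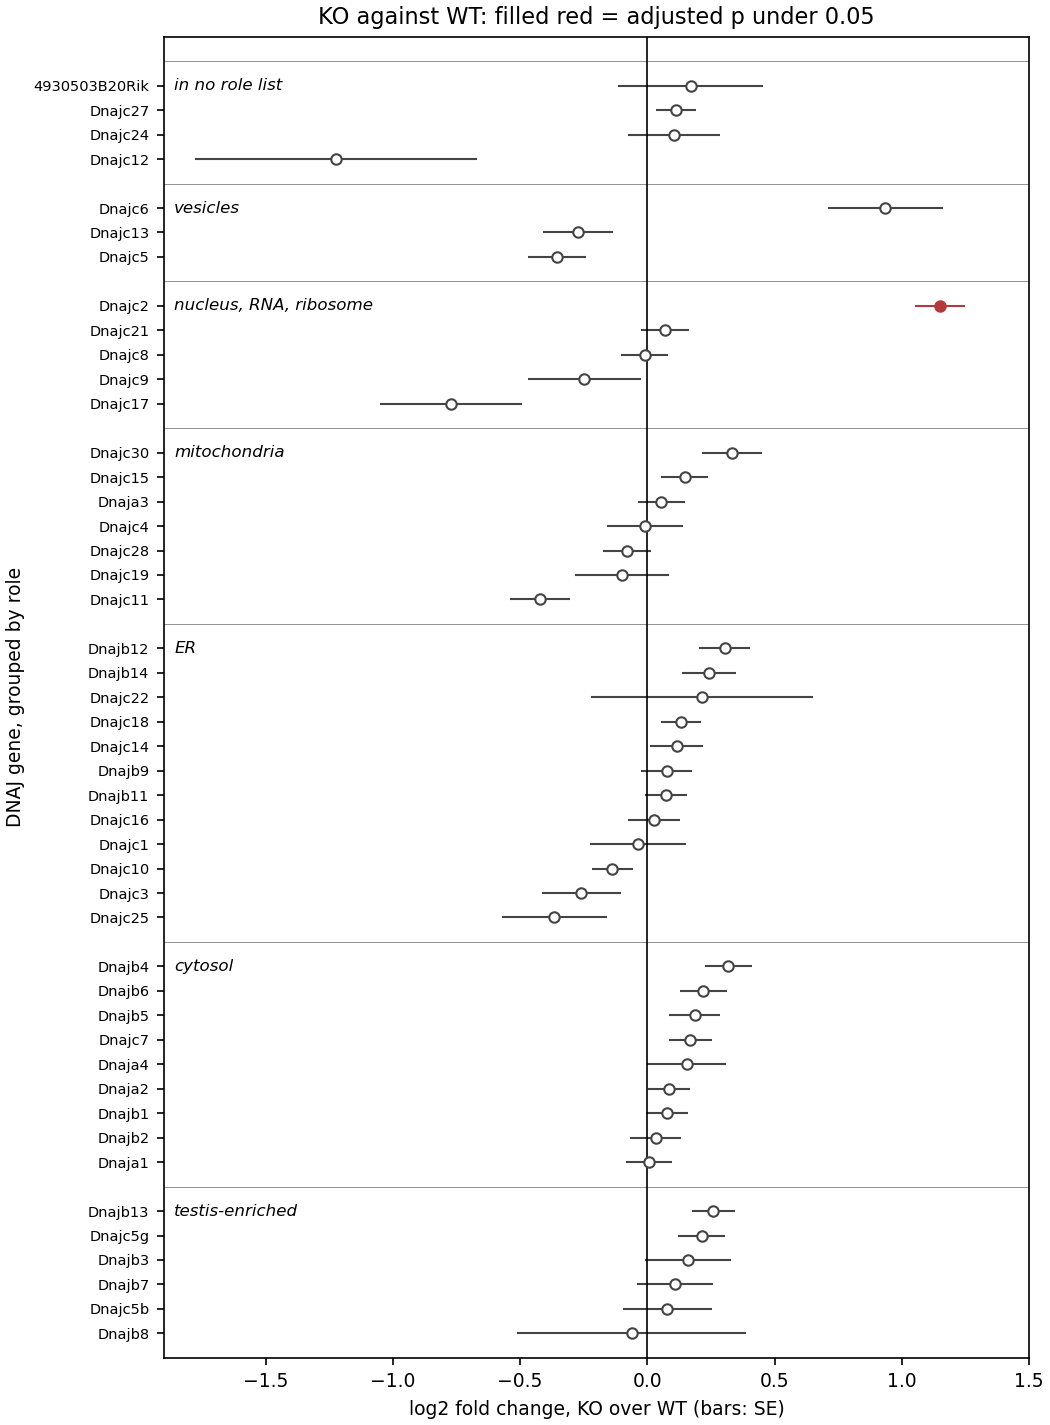
Log2 fold change of KO over WT with SE (bars) for the 46 tested DNAJ genes, grouped by where the protein acts. Dnajc2 at 1.15 (filled red) is the only gene past the adjusted threshold, the cytosolic group lies between 0.01 and 0.32, and Dnajc6 at 0.94 and Dnajc12 at -1.22 carry wide bars.

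The HSP70 system that DNAJ proteins serve held no gene called by edgeR or limma-voom. For this list and the partner lists after it, the background is that of all 15636 tested genes. There DESeq2 called 383 higher and 628 lower, and an unadjusted p under 0.05 gave 11.8% higher and 12.8% lower. Among 11 HSP70 genes, where an unadjusted p under 0.05 gave 1 higher and 1 lower and DESeq2 1 lower, the median was 0.04, and besides Hspa14 the smallest p-values were those of mitochondrial Hspa9 (log2 fold change 0.23, edgeR adjusted p = 0.164) and constitutive cytosolic Hspa8 (log2 fold change -0.35, edgeR adjusted p = 0.2497). Hspa1l, a testis HSP70 chosen after its values were seen, was at 776 and 338 CPM in WT and at 494 and 648 CPM in KO. That is the library order of Dnajb8, but Hspa1l shares 71.9% of its exon bases with an antisense transcript. Hspa2, the most abundant of the 11, had another order, with both KO libraries below both WT libraries. Its levels were 1508 and 1510 CPM in WT and 1363 and 1452 CPM in KO (log2 fold change -0.10, edgeR adjusted p = 0.454). Among 14 nucleotide exchange factors, which release HSP70 from its client, the median was 0.04, where an unadjusted p under 0.05 gave 3 higher and 1 lower and DESeq2 1 lower. Hyou1 of the endoplasmic reticulum was at 123 and 148 CPM in WT and at 86.7 and 73.7 CPM in KO (log2 fold change -0.76, edgeR adjusted p = 0.0801, with a DESeq2 adjusted p of 0.000237), and Hspa4 and Sil1 had log2 fold changes of 0.29 (edgeR adjusted p = 0.116) and 0.32 (edgeR adjusted p = 0.128).

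The HSP90 system, which takes over clients from HSP70, had 16 genes tested, none called by edgeR or limma-voom and a median of 0.01, where an unadjusted p under 0.05 gave 1 higher and 3 lower and DESeq2 1 lower. Fkbp6, a co-chaperone needed in male meiosis, was at 18.1 and 21.9 CPM in WT and at 13.4 and 10.6 CPM in KO (log2 fold change -0.74, edgeR adjusted p = 0.102, with a DESeq2 adjusted p of 0.0133), while Hsp90ab1 and the ubiquitin ligase gene Stub1 had log2 fold changes of -0.29 (edgeR adjusted p = 0.141) and -0.35 (edgeR adjusted p = 0.153). Stub1 shares 42.3% of its exon bases with Jmjd8 on the opposite strand. Of 4 tested genes in the list of J proteins with other names none was called by edgeR, DESeq2 or limma-voom, and 2 were lower at an unadjusted p under 0.05. The log2 fold change was -0.27 for the auxilin relative Gak and 0.25 for Hscb of iron-sulfur cluster assembly. All 5 regulators of the heat shock response had positive fold changes with a median of 0.11, or 4 with DESeq2 size factors and 3 with total counts, and none was called by edgeR or limma-voom, while 1 was higher by DESeq2 and 1 at an unadjusted p under 0.05. Hsf2, a heat shock factor active in spermatogenesis, was at 82.4 and 89.5 CPM in WT and at 116 and 113 CPM in KO (log2 fold change 0.41, edgeR adjusted p = 0.0907, with a DESeq2 adjusted p of 0.0292). Hsbp1, a protein that binds heat shock factor trimers, and Hsf1 were at 0.19 and 0.11 on the log2 fold change scale.

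Promoters were read for the members with the highest levels per kb, Dnajb3 and Dnajb6. RefSeq windows on GRCm38.p6, which run from before each start to 50 bases after it, were matched for 38 of the 47 genes, giving 52 windows out of 32851. The letters searched on both strands were a heat shock element of 3 units (GAA and its reverse TTC in turn, with NN between units), and TGACG or CGTCA (the first 5 letters of the cAMP response element TGACGTCA, through which CREM acts in spermatids). The first was in 3.85% of DNAJ windows and in 0.603% of all windows. Those DNAJ windows are 2 overlapping windows of Dnajb6 that hold the same site, so the element was found for 1 of 38 DNAJ genes. The second was in 48.1% of DNAJ windows and 20.8% of all windows, which were not matched for base composition. Genes with several windows count repeatedly there, and 2 overlapping windows of Dnajb5 hold the same site. It was found for 21 of 38 DNAJ genes, among them 2 of the 5 testis-enriched genes with a window. No share by gene is given for all windows. The full TGACGTCA was in 1.92% of DNAJ windows and 1.79% of all windows, with Dnajc27 as the DNAJ gene that held it. TATAAA or TTTATA was in 5.77% and 13.6%, and CCAAT or ATTGG in 38.5% and 37.4%. Capitals mark the heat shock element in Dnajb6 and the 5-letter runs in Dnajb3, and a match is a description of the letters and not of a bound site.
Dnajb6, chr5:29735827-29735927, plus strand: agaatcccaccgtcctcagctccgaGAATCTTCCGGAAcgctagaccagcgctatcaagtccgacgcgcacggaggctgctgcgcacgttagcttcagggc
Dnajb3, chr1:88205729-88205884, minus strand: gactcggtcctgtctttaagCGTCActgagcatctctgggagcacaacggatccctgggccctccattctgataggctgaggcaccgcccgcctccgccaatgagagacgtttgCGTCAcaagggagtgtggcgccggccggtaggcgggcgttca

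Separate counts of DNAJ genes could be affected by shared sequence or shared position. Of 1081 pairs of members' transcripts, 1 pair had an identical run of 50 bases, Dnajc25 with Gm20503. Exon bases were shared with another annotated gene in 20 members, and with a coding gene in 15. Among those described above, Dnaja4 shared 44.1% of its exon bases with Wdr61 and Dnajb13 11.2% with Ucp2, both on the opposite strand, Dnajb8 shared 37.2% with an antisense transcript, and 4930503B20Rik shared 51.4% with Samd13 on the same strand. Samd13 had between 1 and 5 counts per library. Dnajb3 lies within Ugt1a genes on the opposite strand but shares no exon base with them. The strand setting of the counting is not known here, which leaves these levels uncertain.

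Markers of other cells of the testis were read beside these results. Of all 15636 tested genes DESeq2 called 383 higher and 628 lower, and an unadjusted p under 0.05 gave 11.8% higher and 12.8% lower. The 9 tested spermatogonial markers had a median of -0.60 with 1 called lower by edgeR (Id4), 2 by DESeq2, 0 by limma-voom and 4 lower at an unadjusted p under 0.05. The 10 spermatocyte markers had a median of -0.52 with 1 called lower by edgeR (Piwil1), 6 by DESeq2, 1 by limma-voom and 6 lower at an unadjusted p under 0.05. No marker was called by edgeR in the Sertoli cell list (8 tested, median -0.73, 2 lower at an unadjusted p under 0.05), the Leydig cell list (8 tested, median -0.78, 2 lower, and 1 lower by DESeq2) or the macrophage list (10 tested, median 0.97, 1 higher). Summed marker levels in the 4 libraries were 74.1 to 114.8 CPM for spermatogonia, 3405 to 3754 for spermatocytes, 25.9 to 84.0 for Sertoli cells, 11.6 to 24.2 for Leydig cells and 7.77 to 42.2 for macrophages. Their part in the DNAJ results was not tested.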

How the data were processed

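Poly(A) RNA of adult testis was sequenced from 2 WT and 2 Fam170a KO libraries, grouped by sample title. Per the labels' protocols, full-length cDNA was made from captured mRNA and then amplified. Tools named in the submitters' processing notes are RSEM, StringTie (1.3.1), HISAT2 (2.1.0), Bowtie2 (2.2.8) and fastp (0.18.0), with no role stated. Build, strand setting and multi-mapped reads: not given in the sources used here. In the authors' deposited table are whole-number counts of 22274 Ensembl genes, not normalized in the values.

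The test was that of edgeR 4.0.16 under R 4.3.3 (quasi-likelihood, two-sided, TMM scaling, genotype only). The filterByExpr filter (minimum count 10, minimum total 15) kept 15636 genes and set aside 6638. Benjamini-Hochberg adjustment ran over all genes tested, and 0.05 was the threshold. The SE is the log2 fold change divided by the square root of F. Total counts were 26029374 and 35494303 in WT and 34740160 and 41684437 in KO, with TMM factors of 1.00, 1.08, 0.987 and 0.940. A chi-square per degree of freedom of 45.2 between WT libraries and 10.5 between KO libraries showed no library deposited under both names. The fit was tested on simulated data.

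Names, positions, overlaps and coding sequences come from GENCODE M21 on GRCm38, and promoters from RefSeq. Length correction used the APPRIS principal transcript, then the longest coding one. Members, role lists and marker lists were chosen with earlier results of these data known, the testis-enriched list from general knowledge of mouse tissues. Values per library are given by rule for called members, testis-enriched members, the 8 with the highest mean CPM, the 4 with the smallest p that did not pass, and the extremes of fold change. Up to 3 genes with the smallest p of each partner list are named, some by fold change only, and 1 of them is not reported here. 4930503B20Rik, Dnaja1, Dnaja2, Dnajb12, Dnajb14, Dnajc5, Dnajc3, Dnajc9, Dnajc10, Dnajc13, Dnajc17, Dnajc25 and Dnajc30 were added after values were seen, as were members given by mean level only. Alternatives were other scalings, no filter, DESeq2 1.42.0, limma-voom in limma 3.58.1, a replicate block, leaving out each library, and a threshold of 0.01.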

Additional observations from a re-analysis of the deposited data

How the results depend on the processing

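The number of genes called among all tested was 142, and became 82 with total counts, 451 with no filter, 1011 with DESeq2, 18 at a threshold of 0.01 and 21 to 3408 when each library was left out in turn. DNAJ genes called were 1, or 0 at a threshold of 0.01 and 0 to 15 with a library left out, the 15 arising without WT replicate 1 and including Dnajc2, Dnajb3, Dnajb7, Dnajb8 and Dnajb13. Without WT replicate 2 the called genes were Dnajc2 and Dnajc9, and without either KO library 0. Such a fit has 1 library of a genotype left, whose variation is taken to equal that within the remaining pair. Dnajc2 stayed called under other scalings, no filter, DESeq2 and limma-voom.

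Scaling by total counts turned the median of all DNAJ genes from 0.077 to -0.029 and that of the genes outside the testis-enriched list from 0.075 to -0.035, and lowered the log2 ratio of their summed CPM from 0.19 to 0.078. Relative to the median of all tested genes, the DNAJ median was 0.07 under both scalings. With a library left out, the median of all DNAJ genes ran from 0.010 to 0.13, that of the others from 0.020 to 0.10, and the log2 ratio of summed CPM of the testis-enriched genes, 0.14 with all libraries, from -0.089 to 0.41. Total counts also reversed Dnajc5b (-0.025), Dnajb1 (-0.032), Dnaja1 (-0.10) and Dnaja2 (-0.026). Dnaja1 was at -0.0092 with DESeq2 and at -0.0091 with its size factors in edgeR, and Dnajb8 at 0.11 with limma-voom. The cause was not tested.

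Leaving out a library reversed the sign of log2 fold changes that did not pass with all 4 libraries. They ran from -0.071 to 0.37 for Dnajb3, -0.093 to 0.27 for Dnajb7, -0.62 to 0.76 for Dnajb8, -0.15 to 0.28 for Dnajc5b, -0.064 to 0.34 for Dnaja4, -0.21 to 0.60 for 4930503B20Rik, -0.57 to 0.082 for Dnajc9, -0.13 to 0.086 for Dnaja1 and -0.021 to 0.13 for Dnaja2. In the tally that follows, a value that changed direction is counted as reversed only, whether or not it also gained a call. Over the 43 genes chosen for single values and 10 alternatives (not the threshold of 0.01, at which Dnajc2 lost its call, nor the crossed block), 375 values kept direction and call, 31 gained a call, 3 lost one, all of Dnajc2, and 21 reversed.

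WT and KO libraries share only a replicate number, and the deviations of same-numbered libraries correlated at -0.243. With the replicate block 9 genes were called, of which 0 were DNAJ genes, Dnajb8 was at 0.078 and Dnajc2 at an edgeR adjusted p of 0.0785. A crossed replicate block, added after the data were seen, called 902 genes and Dnajc2 as the 1 DNAJ gene. Without Dnajb13, without Dnajb8 or with 4930503B20Rik added, the median of the testis-enriched genes was 0.11, 0.16 and 0.16. Depth limits Dnajc12 and Dnajc22, with 4 to 29 counts per library.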

Other observations

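The fold changes were also read by class. All 4 class A genes were positive, or 3 with DESeq2 size factors and 1 with total counts, with a median log2 fold change of 0.07. Of 14 class B genes 13 were positive, or 9 with total counts, with a median of 0.17 and both KO libraries above both WT libraries in 7. The exception in class B was Dnajb8. Of 28 tested class C genes 14 were positive and 14 negative, or 10 positive with total counts, with a median of 0.01, and 9 had both KO libraries above and 8 both below the WT libraries. Summed CPM was 743 ± 34.2 in WT and 789 ± 32.4 in KO for class A, 2994 ± 447 and 3352 ± 292 for class B, and 1965 ± 52.3 and 2297 ± 76.1 for class C, Dnajc2 included (SD, n = 2). Among all tested genes 50.8% had a positive fold change, 29.4% had both KO libraries above and 27.9% both below the WT libraries. The classes were compared after values were seen, and the difference between them was not tested.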
